A study of Homo sapiens with 8 samples.

Results

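Trametinib and panobinostat, the single agents of a series on 92.1 cells, were set directly against each other. 92.1 is an established human uveal melanoma cell line, and all libraries came from this 1 line. The comparison used 4 of the 8 libraries: 2 from cells given 10 nM trametinib and 2 from cells given 10 nM panobinostat, each for 24 h. The other groups were vehicle (DMSO), given here as the level both drugs are set against, and the 2 drugs together, whose libraries entered the filter on the mean level and the estimate of spread. Of 18406 gene symbols in the deposited table, the 13320 with a mean of at least 10 over the 8 libraries were tested. For panobinostat the labels give the drug's name but add MEKi, the abbreviation for a MEK inhibitor, which panobinostat is not, so the name was followed. The submitters' processing notes name a genome build for the trametinib and vehicle libraries and no build for those of panobinostat and the combination, and the sample records fall into the same 2 sets. Neither set holds both single drugs, so a difference between the sets and a difference between the drugs cannot be told apart, and the same holds for panobinostat set against vehicle. The values of all 8 libraries come from 1 table. Whether the 2 libraries of a group came from separate cultures is not stated in the sources used here, and the p-values therefore reflect a library-to-library spread that could be technical.

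Trametinib blocks the kinases MEK1 and MEK2, which activate ERK. Active ERK induces its own feedback inhibitors and drives growth through transcripts such as those of cyclin D1 and MYC, and most uveal melanomas carry an activated G alpha q pathway that feeds into this cascade. Panobinostat blocks histone deacetylases, the enzymes that remove acetyl groups from histones and other proteins, and drugs of this class are known for switching on silent genes as well as for slowing the cell cycle. The melanocyte lineage, from which uveal melanoma arises, is governed by the transcription factor MITF, which controls melanin synthesis.

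The deposited values were read counts divided by a size factor for each library, and all levels below are in that unit. The recovered reads were 10342369 and 10528784 with trametinib, against 10005164 and 10169082 with panobinostat and 16861001 and 12808244 with vehicle. The trametinib libraries were less alike (r = 0.897 over the tested genes, on the log2(value + 1) scale) than the panobinostat libraries (r = 0.982). Trametinib replicate 2 listed 5362 genes at 0 and trametinib replicate 1 listed 3743, against 2886 and 2880 in the panobinostat libraries. The 8 melanocyte markers summed to 167229 and 175142 with trametinib, against 99949.9 and 103748 with panobinostat and 111479 and 103559 with vehicle. MITF, SOX10, PMEL, MLANA, TYR and TYRP1 were above 1000 in each of these libraries, DCT was low with panobinostat and vehicle, and S100B was at 12.2 or less, with 0 in both trametinib libraries. Of the markers of other cell types, the 6 listed for fibroblasts summed to 761 and 1019.7 with trametinib, against 974 and 1000.3 with panobinostat and 391 and 410.1 with vehicle. Nearly all of that sum was COL1A1, at 511 and 821 with trametinib, against 509.7 and 593 with panobinostat and 133 and 149 with vehicle, and LUM, at 246 and 169 with trametinib, against 449.6 and 405 with panobinostat and 255 and 259 with vehicle. The 5 epithelial markers in the table summed to 89.3 and 37.2 with trametinib, against 42.8 and 24.2 with panobinostat and 24.1 and 23.8 with vehicle. Among them CDH1 was at 19.1 and 13.1 with trametinib, against 4.08 and 2.02 with panobinostat and KRT14 at 38.1 and 9.04 with trametinib, against 0 and 1.01 with panobinostat (3.81 ± 1.1, adjusted p = 0.0243). KRT8 was at 25.1 and 0 with trametinib, against 19.4 and 4.03 with panobinostat (-0.99 ± 1.5). KRT18 was at 7.02 and 15.07 with trametinib, against 19.4 and 15.12 with panobinostat (-0.67 ± 0.73). Neither KRT8 nor KRT18 passed. The 3 immune markers in the table summed to 843 and 762 with trametinib, against 1421 and 1498 with panobinostat and 654 and 615 with vehicle. The part of these markers in the results was not tested. The endothelial, immune and epithelial markers PECAM1, CDH5, KDR, PTPRC, CD14 and EPCAM were at 3.96 or less in the trametinib, panobinostat and vehicle libraries, while CD68, a lysosomal protein also counted as an immune marker, was at 841 and 762 with trametinib, against 1417 and 1497 with panobinostat and 650.0 and 610.4 with vehicle.

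The drugs separated a large share of the transcriptome. By limma, 5598 genes passed a Benjamini-Hochberg adjusted p under 0.05, 42% of those tested. Of these, 2487 genes (18.7%) were higher with trametinib than with panobinostat and 3111 (23.4%) were lower. The counts of called list members below are to be read beside these shares. Differences of at least 2-fold were found for 828 genes higher and 1697 lower with trametinib. The counts rested on single libraries in part: 1635 were higher without panobinostat replicate 1, and 4690, 1937 and 1913 were lower without trametinib replicate 1, panobinostat replicate 1 and panobinostat replicate 2. At 2-fold, 1296 were higher and 2699 lower without trametinib replicate 1, and 1129 were lower without panobinostat replicate 2. Fitting only the 4 libraries of the single drugs gave 1710 higher and 1942 lower genes. The libraries of the drugs did not overlap in 8997 genes, 67.5%. Differences are given as the log2 difference, trametinib minus panobinostat, with its standard error (SE), and adjusted p-values are from this fit. The median over all tested genes was -0.07, and quantile normalisation moved it to 0.05.

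The balance of higher and lower genes changed with level. Among 2096 genes with a mean value of 10 to 50, 103 were higher and 358 lower with trametinib, and 35.1% of these genes were at 0 in trametinib replicate 2, 7.16% in trametinib replicate 1 and at most 0.763% in either panobinostat library. Among 2166 genes with a mean of at least 1000, 772 were higher and 644 lower. Without trametinib replicate 2, 50.3% of the tested genes passed, and 5201 of the 5598 genes passed again in the same direction. That fit keeps only trametinib replicate 1 and takes its spread from the other groups, so passing again is no check on replication with trametinib. Whether the missing low transcripts of trametinib replicate 2 enter single results was not tested. In bulk RNA, fewer cells of a kind and less RNA per cell cannot be told apart.

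**Figure D1:**
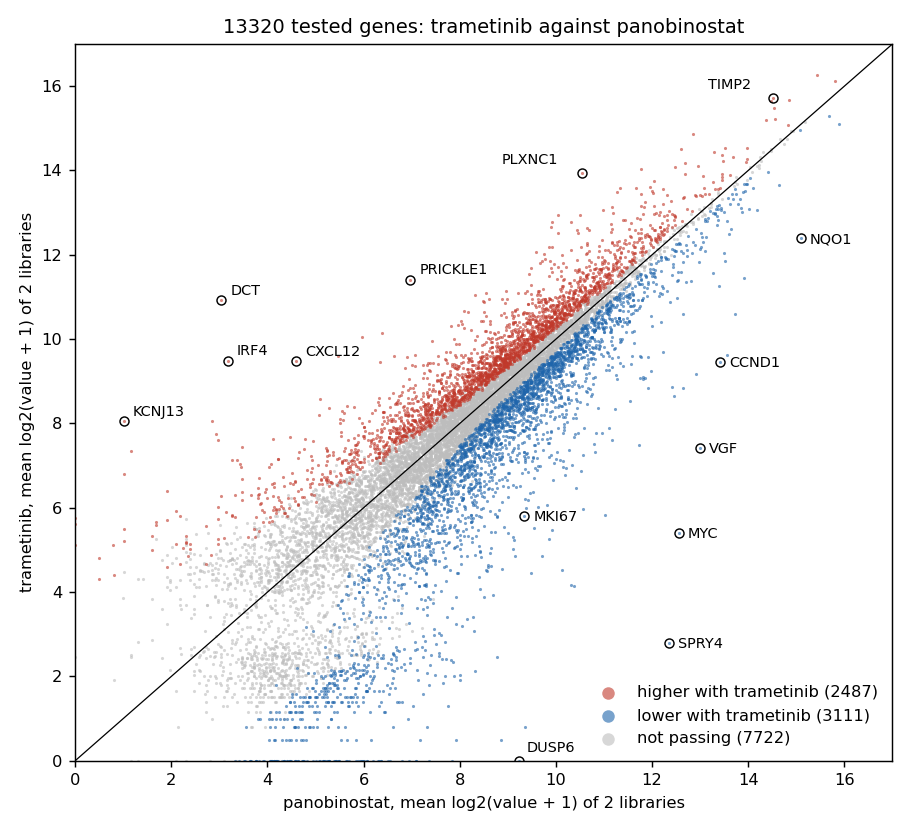
Mean log2(value + 1) of the 2 trametinib libraries (vertical axis) against that of the 2 panobinostat libraries (horizontal axis) for 13320 tested genes, with 2487 genes higher with trametinib in red, 3111 lower in blue and 7722 that did not pass in grey. The line marks equal values. SPRY4, DUSP6 and MYC lie farthest below it among the circled genes, and DCT and KCNJ13 farthest above.

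Transcripts that report ERK activity had the largest median difference of the gene lists examined. Of 24 listed ERK feedback inhibitors and output genes, 22 were tested, 20 were lower with trametinib and 0 higher. Their median difference was -4.14, against -0.07 over all tested genes. SPRY4 and SPRY2, inhibitors of signalling between receptor tyrosine kinases and RAS, were nearly absent with trametinib. SPRY4 was at 3.01 and 11.1 with trametinib, against 5265 and 5217 with panobinostat and 2838 and 2849 with vehicle. SPRY2 was at 0 and 2.01 with trametinib, against 694 and 625 with panobinostat and 515 and 466 with vehicle. Both were thus far lower in the trametinib libraries than in the panobinostat libraries, which lay above vehicle, with a difference of -9.56 ± 0.44 (adjusted p = 3.38e-07) for SPRY4, which was -10.35 without trametinib replicate 2. With 2 reads in all with trametinib, SPRY2 was 657-fold lower there (exact 95% interval 182 to 5431, counting error only; adjusted p = 2.47e-06).

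DUSP6, the phosphatase that inactivates ERK, was at 0 in both trametinib libraries and at 627 and 583 with panobinostat, close to the 577 and 567 with vehicle. Against a floor of 3 reads per library, DUSP6 was at least 201-fold lower with trametinib (counting error only). DUSP4, a nuclear phosphatase of the same family, was at 751 and 817 with trametinib, against 12726 and 11352 with panobinostat and 6693 and 7080.1 with vehicle. The 3 levels stood in the order trametinib, vehicle, panobinostat, and the difference between the drugs was -3.94 ± 0.087 (adjusted p = 5.82e-09). PHLDA1, a growth factor induced gene, showed this order too, at 436 and 492 with trametinib, against 5305 and 5580.1 with panobinostat and 2075 and 1997 with vehicle (-3.55 ± 0.088, adjusted p = 9.60e-09). HMGA2, which encodes a chromatin protein of proliferating and embryonic cells, was at 52.2 and 60.3 with trametinib, against 2095 and 2053 with panobinostat and 2082 and 2174 with vehicle. With panobinostat HMGA2 thus stayed near its vehicle level, and the drugs differed by -5.18 ± 0.11 (adjusted p = 5.82e-09).

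The growth regulators downstream of ERK followed. MYC, the transcription factor, was at 53.2 and 32.1 with trametinib, against 5921 and 6139 with panobinostat and 4021 and 4133 with vehicle, 142-fold lower with trametinib than with panobinostat (-7.15 ± 0.3, adjusted p = 2.05e-07). CCND1, cyclin D1, was at 785 and 632 with trametinib, against 11074 and 10677 with panobinostat and 7030.2 and 7329.5 with vehicle, a difference of -3.95 ± 0.096 (adjusted p = 9.14e-09). ETV5, an ETS family transcription factor, was at 126 and 249 with trametinib, against 3343 and 3455 with panobinostat and 2409.8 and 2257 with vehicle (-4.25 ± 0.25, adjusted p = 1.63e-06). For each of these 3 genes the trametinib libraries were lowest and the panobinostat libraries highest of the 3 groups. The 2 tested genes of the list that did not pass were SPRED3 (adjusted p = 0.219) and SPSB1 (adjusted p = 0.411). The count of lower genes was 20 under TMM scaling, quantile normalisation and edgeR, and 20 without trametinib replicate 2.

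Immediate early genes split. Of 23 tested, 5 were higher with trametinib and 10 lower, with a median of -0.44. The share called was 65.2%, against 42% over all tested genes. The nuclear receptor gene NR4A1 was at 595 and 609.8 with trametinib, against 3937 and 4079.7 with panobinostat and 2458 and 2352 with vehicle (-2.73 ± 0.07, adjusted p = 1.09e-08). Its relative NR4A3 was at 682 and 992 with trametinib, against 4605 and 5062 with panobinostat (-2.55 ± 0.14, adjusted p = 1.30e-06). JUN, a subunit of AP-1, went the other way, at 1258 and 1523 with trametinib, against 349 and 343 with panobinostat and 270.2 and 265 with vehicle (2.00 ± 0.11, adjusted p = 1.20e-06). KLF6, another transcription factor gene, was higher too, at 3576 and 3556 with trametinib, against 1122 and 1128 with panobinostat and 1136 and 1165 with vehicle (1.66 ± 0.065, adjusted p = 1.42e-07). The zinc finger gene EGR3 was at 20.1 and 2.01 with trametinib, against 171 and 218 with panobinostat, low in both trametinib libraries but uneven between them. Its difference of -4.61 ± 0.81 was -3.20 without trametinib replicate 2.

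The kinase cascade itself differed less, with 40% of its tested genes called, against 42% over all tested genes. Of 20 tested RAS, RAF, MEK and ERK cascade genes, 7 were higher and 1 lower with trametinib, with a median of 0.13, and 2 were lower without trametinib replicate 1. The lower one was SOS1, an activator of RAS, at 5633 and 5898 with trametinib, against 12232 and 12622 with panobinostat and 8318 and 8192 with vehicle (-1.11 ± 0.055, adjusted p = 5.40e-07). The RAS inhibitor gene RASA1 was higher, at 781 and 689 with trametinib, against 409.8 and 432 with panobinostat and 417 and 378 with vehicle (0.80 ± 0.13, adjusted p = 9.03e-04). NRAS was higher as well, at 1311 and 1293 with trametinib, against 822 and 842 with panobinostat and 1033 and 909 with vehicle (0.65 ± 0.12, adjusted p = 0.00241). MAP2K1 and MAP2K2, which encode the targets of trametinib, did not pass, with 95% intervals of -0.68 to 0.13 and -0.18 to 0.41 for the log2 difference. BRAF, at 739 and 828 with trametinib, against 566 and 473 with panobinostat, passed with 0.60 ± 0.13 (adjusted p = 0.00506) but did not pass without panobinostat replicate 2, where its difference was 0.47.

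**Figure D2:**
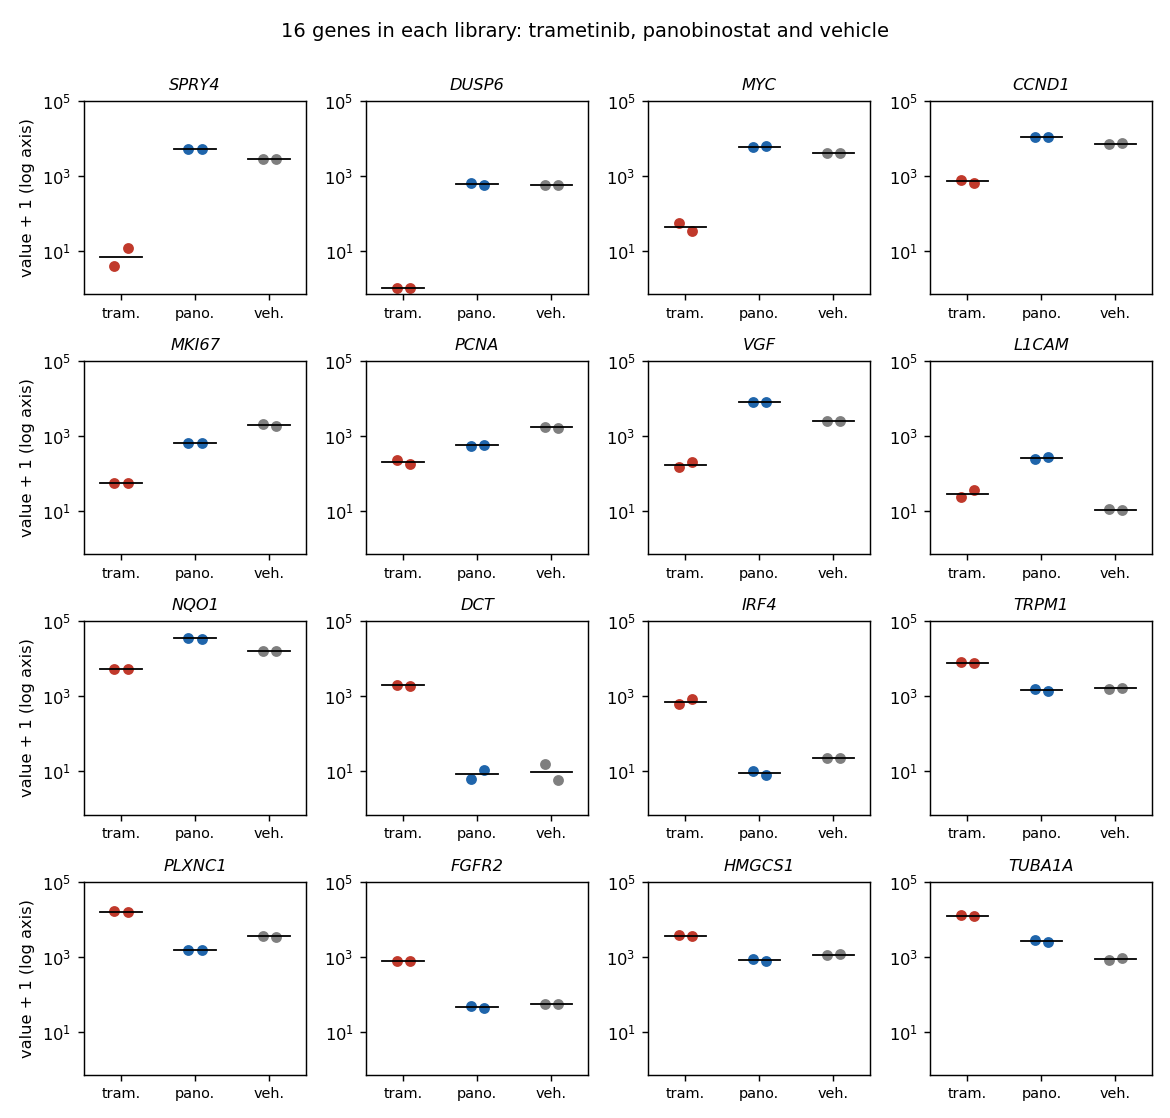
Value + 1 on a log axis for 16 genes in each of the 2 trametinib (tram., red), 2 panobinostat (pano., blue) and 2 vehicle (veh., grey) libraries. Black lines are means of the log values. The trametinib points lie under the panobinostat points in the first 9 panels and over them in the last 7.

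Some genes were read with 1 drug and close to absent with the other. Taking 50 or more in both libraries of one drug and under 5 in both of the other, 32 genes were on with panobinostat and near 0 with trametinib, and 3 were on with trametinib and near 0 with panobinostat. In 19 of the 32, both trametinib libraries were at 0. Their folds, against a floor of 3 reads per library, lay between 20.4 and 201 and are lower bounds for counting error only. These 32 genes had vehicle means between 3.59 and 572, and 13 of them were at 50 or more with vehicle. Besides DUSP6, SPRY2 and RGS16, the list held HES1, a target of Notch signalling, at 2.01 and 1.00 with trametinib, against 199 and 234 with panobinostat and 167 and 162 with vehicle. It also held genes that were low with vehicle: the receptor tyrosine kinase gene ALK at 1.00 and 0 with trametinib, against 294 and 201 with panobinostat and 14.4 and 17.4 with vehicle, the receptor gene GPR37 at 0 and 0 with trametinib, against 220.2 and 237 with panobinostat and 27.1 and 29.3 with vehicle, and the scavenger receptor gene SCARA5 at 2.01 and 0 with trametinib, against 212 and 118 with panobinostat and 8.43 and 4.75 with vehicle.

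In GPR37 and ALK the panobinostat libraries lay well over vehicle and the trametinib libraries under it. GPR37 was at least 75.9-fold lower with trametinib. Where 1 to 3 reads were found, the ratio is given with its exact 95% interval: ALK was 492-fold lower with trametinib (87.9 to 19468), HES1 144-fold (48.9 to 699.9) and SCARA5 164-fold (45.1 to 1361). CADM1, a cell adhesion gene, was at 0 and 0 with trametinib, against 175 and 150.2 with panobinostat and 50.6 and 50.7 with vehicle, at least 54.1-fold lower. GJB1, a gap junction protein gene, was at least 45.5-fold lower, the RAS signalling scaffold gene CNKSR2 at least 45.3-fold, the myosin gene MYO3A at least 40.4-fold, the matrix protease gene ADAMTS5 at least 36.5-fold, RGS16, which shortens G protein signals, at least 30.8-fold, and the phosphodiesterase gene PDE7B at least 29.98-fold. SH3TC2, known from peripheral nerve, was at 0 and 1.00 with trametinib, against 485 and 448 with panobinostat and 554 and 553 with vehicle, 929-fold lower from 1 read with trametinib (166 to 36741; adjusted p = 1.20e-06). The floors and intervals cover counting error only, because the reads carry no molecular identifiers and may include copies of 1 molecule. The trametinib libraries differed by more than counting error (chi-square per degree of freedom 16.3, against 3.72 for panobinostat). The floors and intervals leave this spread out, and the genes were picked by the values of these same libraries.

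The 3 genes on with trametinib were near 0 with vehicle too. KCNJ13, an inward rectifier potassium channel gene, was at 296 and 237 with trametinib, against 3.06 and 0 with panobinostat and 0 and 2.38 with vehicle, 175-fold higher with trametinib over 3 reads with panobinostat (exact 95% interval 59.6 to 852; adjusted p = 2.06e-04). UBD, a ubiquitin-like modifier, was at 130.4 and 203 with trametinib, against 0 and 4.03 with panobinostat and 1.2 and 0.792 with vehicle (6.19 ± 0.93, adjusted p = 6.35e-04), where the difference was 5.02 without panobinostat replicate 1 and 7.35 without panobinostat replicate 2. VWF, von Willebrand factor, was at 144 and 85.4 with trametinib, against 3.06 and 0 with panobinostat and 1.2 and 1.58 with vehicle, 75.6-fold higher with trametinib over 3 reads with panobinostat (exact 95% interval 25.5 to 369; adjusted p = 8.93e-04). The other endothelial markers in the table, PECAM1, CDH5 and KDR, were at 0 in both trametinib libraries. Without trametinib replicate 1 the counts were 17 genes on with trametinib and 205 on with panobinostat, and without replicate 2 they were 5 and 53. Leaving out panobinostat replicate 1 gave 7 genes on with trametinib, and leaving out replicate 2 gave 6. Such counts could only stay or rise, because leaving out a library relaxes the rule.

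**Figure D3:**
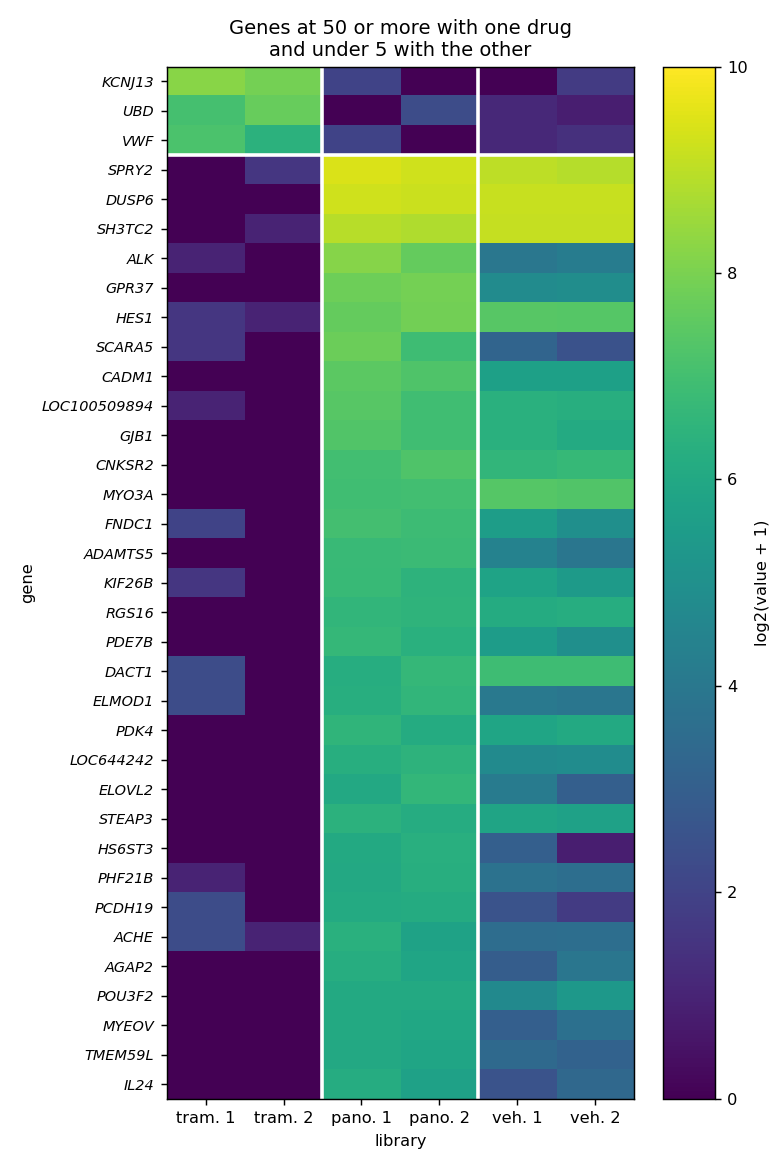
Colour gives log2(value + 1) in each trametinib, panobinostat and vehicle library (columns) for the 3 genes on with trametinib (above the white line) and the 32 genes on with panobinostat (below it). The trametinib columns of the lower block are dark throughout, and its vehicle columns range from dark to bright.

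Cell division transcripts were low with both drugs and lowest with trametinib. Of 35 tested mitosis genes, 33 were lower with trametinib than with panobinostat and 0 higher, with a median of -2.48. Set against vehicle, the same genes had a median of -3.64 with trametinib and -1.40 with panobinostat. MKI67, the proliferation marker Ki-67, was at 54.2 and 56.3 with trametinib, against 647 and 646 with panobinostat and 2106 and 1906 with vehicle (-3.53 ± 0.12, adjusted p = 8.51e-08). ASPM, a spindle pole protein gene, was at 114 and 162 with trametinib, against 1081 and 1194 with panobinostat and 3001 and 2947 with vehicle (-3.05 ± 0.15, adjusted p = 5.33e-07). In both the order was trametinib, panobinostat, vehicle. MYBL2, an activator of cell cycle genes, kept this order at 365 and 389 with trametinib, against 1274 and 1274 with panobinostat and 2870.2 and 2878 with vehicle (-1.75 ± 0.084, adjusted p = 4.49e-07).

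PTTG1, which encodes securin, the inhibitor of sister chromatid separation, did not follow that order. It was at 464 and 608 with trametinib, against 3709.7 and 3524 with panobinostat and 2219 and 2258 with vehicle, and thus above vehicle with panobinostat and below it with trametinib (-2.76 ± 0.11, adjusted p = 1.81e-07). The kinesin gene KIF20B was at 35.1 and 1.00 with trametinib, against 280.3 and 347 with panobinostat. Its difference of -5.20 ± 0.99 was -3.12 without trametinib replicate 2, which held 1 read. PLK4, the kinase of centriole duplication, was at 9.03 and 1.00 with trametinib, against 107 and 85.7 with panobinostat (-4.43 ± 0.67, adjusted p = 6.47e-04), with -3.27 without trametinib replicate 2.

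Promoters of the mitosis genes are shown because they share a short element that the choice of the list did not use. The cell cycle homology region was searched on both strands as TTTGAA, as TTTAAA and as TTCGAA, in RefSeq promoters, from 250 bases before to 50 after the gene start. It was found in 24 of the 29 mitosis genes with a promoter in the table (82.8%) and in 1793 of 10425 promoters of tested genes (17.2%). Capitals mark each match in these stretches before the gene start, in GRCh38.p14 coordinates and read 5′ to 3′ on the gene's strand:
MKI67 (chr10:128126424-128126476, minus strand): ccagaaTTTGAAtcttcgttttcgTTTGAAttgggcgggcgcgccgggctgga
PTTG1 (chr5:160421802-160421854, plus strand): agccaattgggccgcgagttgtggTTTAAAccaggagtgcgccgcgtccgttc
ASPM (chr1:197146670-197146700, minus strand): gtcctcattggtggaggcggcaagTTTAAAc

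DNA replication genes moved with them. Of 32 tested, 24 were lower with trametinib and 0 higher, with a median of -1.42. Against vehicle the medians were -3.08 with trametinib and -1.70 with panobinostat. MCM3, a subunit of the replicative helicase, was at 379 and 379.8 with trametinib, against 1045 and 969 with panobinostat and 2647 and 2859.6 with vehicle (-1.40 ± 0.096, adjusted p = 4.32e-06). PCNA, the sliding clamp of the replication fork, was at 233 and 181 with trametinib, against 558 and 568 with panobinostat and 1779.7 and 1678 with vehicle (-1.45 ± 0.14, adjusted p = 4.69e-05). MCM10 was at 30.1 and 21.1 with trametinib, against 139 and 177 with panobinostat and 794 and 838 with vehicle (-2.59 ± 0.29, adjusted p = 9.41e-05). In these 3 genes each panobinostat library lay between the trametinib and the vehicle libraries.

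Further replication genes rested more on 1 library. CDC45, of the helicase complex, was at 37.1 and 0 with trametinib, against 172 and 137 with panobinostat. Its difference of -4.65 ± 1.3 was -2.02 without trametinib replicate 2 and -7.27 without replicate 1, and it did not pass with either panobinostat library left out. GINS2 was at 65.2 and 18.1 with trametinib, against 167 and 150.2 with panobinostat, a difference of -2.17 ± 0.48 that was -1.27 without trametinib replicate 2. It did not pass without panobinostat replicate 1 (-2.09).

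Replication gene promoters are shown for the same reason. TTTCCCGC or TTTGGCGC, forms of the E2F site, was found on either strand in 15 of 29 promoters of the list (51.7%) and in 389 of the 10425 (3.73%). A match is a description of letters and not a bound site:
MCM3 (chr6:52284885-52284940, minus strand): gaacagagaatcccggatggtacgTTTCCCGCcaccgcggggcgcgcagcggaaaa
PCNA (chr20:5126650-5126705, minus strand): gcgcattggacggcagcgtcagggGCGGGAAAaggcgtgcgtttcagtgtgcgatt
GINS2 (chr16:85688955-85689009, minus strand): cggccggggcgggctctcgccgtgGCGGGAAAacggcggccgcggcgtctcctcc

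Some of the factors that read such sites differed as well. Of 10 tested E2F factors and their partners, 6 were lower with trametinib and 0 higher, with a median of -1.39. For 4 of the 10, E2F3, E2F6, TFDP1 and TFDP2, the 95% interval of the difference lay within 0.5 on the log2 scale. E2F1, an activator of S phase genes, was at 27.1 and 21.1 with trametinib, against 136 and 118 with panobinostat and 698 and 637 with vehicle (-2.36 ± 0.28, adjusted p = 1.63e-04). E2F7, a repressor of the family, was at 33.1 and 52.2 with trametinib, against 182 and 193 with panobinostat and 632 and 644 with vehicle (-2.15 ± 0.26, adjusted p = 1.83e-04). E2F5 was at 44.1 and 32.1 with trametinib, against 305 and 302 with panobinostat and 364 and 314 with vehicle, close to vehicle with panobinostat (-2.98 ± 0.24, adjusted p = 1.24e-05). E2F2 was at 10.03 and 0 with trametinib, against 68.3 and 125 with panobinostat, and its difference of -4.81 ± 0.92 was -3.08 without trametinib replicate 2.

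Nucleotide synthesis had 15 of 23 tested genes lower with trametinib and 0 higher (median -0.75). RRM2, a subunit of ribonucleotide reductase, was at 90.3 and 33.2 with trametinib, against 443 and 434 with panobinostat and 2401 and 2681 with vehicle (-2.98 ± 0.36, adjusted p = 1.72e-04), with -2.27 without trametinib replicate 2. PAICS, of purine synthesis, was at 639 and 628 with trametinib, against 1546 and 1517 with panobinostat and 2690.3 and 2836 with vehicle (-1.27 ± 0.08, adjusted p = 2.47e-06). Of 23 tested genes of homologous recombination and the DNA damage response, 11 were lower and 0 higher (median -1.41, and -0.74 without trametinib replicate 2). The 47.8% called stood near the 42% over all tested genes. The lower count was 17 without trametinib replicate 1 and 6 without panobinostat replicate 2. The exonuclease gene EXO1 was at 19.1 and 20.1 with trametinib, against 314 and 359 with panobinostat and 1433 and 1499 with vehicle (-4.03 ± 0.28, adjusted p = 4.96e-06). BRCA2, of the same repair pathway, was at 81.2 and 43.2 with trametinib, against 207 and 221 with panobinostat and 1005 and 964 with vehicle (-1.83 ± 0.29, adjusted p = 7.86e-04).

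The regulators of G1 divided in direction, with 75% of those tested called, against 42% over all tested genes. Of 12 tested cyclins, kinases and retinoblastoma proteins, 3 were higher with trametinib and 6 lower, and the lower count was 3 without panobinostat replicate 2. CDK6, a partner of cyclin D1, was at 196 and 322 with trametinib, against 1146 and 1145 with panobinostat and 926 and 922 with vehicle (-2.18 ± 0.23, adjusted p = 6.67e-05). CDK2 was higher, at 7224 and 6599.6 with trametinib, against 3103 and 2963 with panobinostat and 3521 and 3125 with vehicle (1.19 ± 0.076, adjusted p = 2.84e-06). So was RBL2, a retinoblastoma family protein gene, at 758 and 799 with trametinib, against 421 and 372 with panobinostat and 379.8 and 363 with vehicle (0.97 ± 0.12, adjusted p = 2.04e-04). CDKN1A, the CDK inhibitor p21, was at 1855 and 2158 with trametinib, against 3579 and 3611 with panobinostat and 2564 and 2601 with vehicle, below vehicle with trametinib and above it with panobinostat (-0.84 ± 0.075, adjusted p = 2.31e-05).

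Histone transcripts were low with both drugs. Of 17 tested replication-dependent histone genes, 11 were lower with trametinib and 0 higher, with a median of -1.10, and their medians against vehicle were -3.68 with trametinib and -2.52 with panobinostat. HIST1H3B was at 117 and 88.4 with trametinib, against 458 and 483 with panobinostat and 3189 and 3424 with vehicle (-2.20 ± 0.19, adjusted p = 1.93e-05). HIST1H2BF was at 254 and 310.4 with trametinib, against 568 and 572 with panobinostat and 3726 and 4334 with vehicle (-1.02 ± 0.13, adjusted p = 1.93e-04). The linker histone gene HIST1H1C was at 408 and 448 with trametinib, against 925 and 919 with panobinostat and 3391 and 3175 with vehicle (-1.11 ± 0.083, adjusted p = 7.49e-06). Histone genes have near-identical copies among which reads may have been split, so single members are uncertain. H1F0, a linker histone gene known to respond to deacetylase inhibitors, had at most 1 read in each of the trametinib, panobinostat and vehicle libraries and was not tested.

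Transcripts for ribosome production were lower with trametinib. Of 29 tested nucleolar genes, 25 were lower and 1 higher, with a median of -0.93. NCL, nucleolin, was at 2633 and 2601 with trametinib, against 6210.3 and 7138 with panobinostat and 12317 and 12235 with vehicle (-1.35 ± 0.068, adjusted p = 6.36e-07). DDX21, a helicase of ribosomal RNA processing, was at 711 and 819 with trametinib, against 2422 and 2588 with panobinostat and 4363 and 4796 with vehicle (-1.71 ± 0.092, adjusted p = 9.17e-07). NOLC1 was at 667 and 624 with trametinib, against 2349.8 and 2235 with panobinostat and 3365 and 3337 with vehicle (-1.83 ± 0.08, adjusted p = 2.66e-07). For all 3 the panobinostat libraries stood between the trametinib and vehicle libraries. The cytosolic ribosomal proteins shifted by little: 18 of 29 were lower and 1 higher (0 higher without trametinib replicate 2 or with either panobinostat library left out), but the median was -0.28 and the differences ran from -0.67 to 0.27.

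Chaperones and sugar metabolism showed the same direction. Of 26 tested heat shock and chaperonin genes, 21 were lower with trametinib and 2 higher (median -0.49). HSP90AA1, the inducible HSP90, was at 4399 and 4026 with trametinib, against 11189 and 11799.5 with panobinostat and 15603 and 15581 with vehicle (-1.45 ± 0.057, adjusted p = 1.52e-07). Its cochaperone FKBP4 was at 321 and 254 with trametinib, against 1160.1 and 1120.2 with panobinostat and 1756 and 1771 with vehicle (-1.99 ± 0.13, adjusted p = 3.05e-06). CRYAB, a small heat shock protein gene, went the other way at 3621 and 3749 with trametinib, against 957 and 929 with panobinostat and 764 and 691 with vehicle (1.97 ± 0.083, adjusted p = 2.04e-07). Of 26 tested genes of glycolysis and the pentose phosphate pathway, 17 were lower and 3 higher (median -0.56). Hexokinase gene HK1 was at 486 and 483 with trametinib, against 1784 and 1726 with panobinostat and 1397 and 1369.6 with vehicle (-1.85 ± 0.08, adjusted p = 2.31e-07). TKT, transketolase, was at 2602 and 2766 with trametinib, against 5857 and 5906 with panobinostat and 5659 and 5581 with vehicle (-1.13 ± 0.054, adjusted p = 4.56e-07).

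Amino acid transporters separated in both directions, 7 higher and 7 lower of 18 tested, the lower count being 4 without panobinostat replicate 1. SLC7A5, the large neutral amino acid transporter LAT1, was at 17094 and 16709.5 with trametinib, against 3403 and 3549 with panobinostat and 5706 and 5573 with vehicle (2.28 ± 0.052, adjusted p = 6.17e-09). SLC1A5, a glutamine transporter gene, was at 162 and 239 with trametinib, against 853 and 831 with panobinostat and 1812 and 1851 with vehicle (-2.09 ± 0.18, adjusted p = 2.01e-05). SLC38A1, another one, was at 1331 and 1377 with trametinib, against 4674 and 4654 with panobinostat and 4837 and 5006 with vehicle (-1.78 ± 0.059, adjusted p = 6.29e-08). SLC7A5 was thus above vehicle with trametinib and below it with panobinostat. Of the transporters tested, 77.8% were called, against 42% over all tested genes.

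Genes of the antioxidant response were among those lower with trametinib, in a list with 60% called, against 42% over all tested genes. Of 20 tested selenoprotein and oxidative stress genes, 10 were lower with trametinib and 2 higher (median -0.53), the higher count being 5 without trametinib replicate 1. NQO1, a quinone reductase, was at 5338 and 5444 with trametinib, against 35770.4 and 34172 with panobinostat and 16474 and 16406 with vehicle (-2.70 ± 0.047, adjusted p = 1.60e-09). TXNRD1, thioredoxin reductase, was at 2597 and 2315 with trametinib, against 11009.7 and 10373 with panobinostat and 5133 and 5199 with vehicle (-2.12 ± 0.064, adjusted p = 3.17e-08). SRXN1, sulfiredoxin, was at 62.2 and 107 with trametinib, against 750.3 and 723 with panobinostat and 489 and 398 with vehicle (-3.16 ± 0.23, adjusted p = 6.98e-06). GCLM, of glutathione synthesis, was at 83.2 and 55.3 with trametinib, against 338 and 280.3 with panobinostat and 328 and 336 with vehicle (-2.17 ± 0.24, adjusted p = 9.41e-05). In NQO1, TXNRD1 and SRXN1 the order was trametinib, vehicle, panobinostat.

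Pigment cell genes were higher with trametinib. Of 22 tested genes of melanin synthesis and the melanosome, 17 were higher and 2 lower, with a median of 0.89, and the same counts were found without trametinib replicate 2. Without panobinostat replicate 2, 1 was lower. Against vehicle their median was 0.85 with trametinib and -0.12 with panobinostat. DCT, dopachrome tautomerase of melanin synthesis, was at 1984 and 1912 with trametinib, against 5.1 and 10.1 with panobinostat and 14.4 and 4.75 with vehicle, the largest difference in this direction among the genes eligible to be named (7.89 ± 0.48, adjusted p = 2.17e-06). TSPAN10, a tetraspanin gene of pigment cells, was at 6381 and 6646 with trametinib, against 923 and 997 with panobinostat and 1929.5 and 1974 with vehicle (2.76 ± 0.07, adjusted p = 1.09e-08), above vehicle with trametinib and below it with panobinostat.

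Other members of that list were higher with trametinib as well. MYO5A, the motor that carries melanosomes, was at 8914 and 9101 with trametinib, against 2239 and 2347 with panobinostat and 2849.8 and 2906 with vehicle (1.97 ± 0.058, adjusted p = 2.75e-08). RAB27A, which tethers them to it, was at 1113 and 875 with trametinib, against 156 and 185 with panobinostat and 237 and 259.7 with vehicle (2.53 ± 0.17, adjusted p = 3.34e-06). TRPM1, a channel gene that MITF activates in melanocytes, was at 8151 and 7512 with trametinib, against 1529 and 1360.2 with panobinostat and 1586 and 1662 with vehicle (2.44 ± 0.11, adjusted p = 4.07e-07). TYR, tyrosinase, the first enzyme of melanin synthesis, differed less, at 2726 and 2972 with trametinib, against 1745 and 1789 with panobinostat and 1588 and 1534 with vehicle (0.69 ± 0.081, adjusted p = 1.43e-04). In all 4 genes the trametinib libraries were the highest of the 3 groups. The 5 markers of the retinal pigment epithelium, another pigmented cell type of the eye, summed to 782 and 794 with trametinib, against 305 and 349.9 with panobinostat and 197 and 191 with vehicle. Most of that was BEST1, at 776 and 794 with trametinib, against 238 and 237 with panobinostat and 169 and 173 with vehicle, while LRAT was at 6.02 and 0 with trametinib, against 60.1 and 109 with panobinostat and 18.1 and 13.5 with vehicle, and RPE65, the defining enzyme of these cells, was at 0 in all of these libraries. Their part in the pigment result was not tested.

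Promoters of this list are shown for the E-box CATGTG, a form that MITF binds. It was found on either strand in 8 of the 17 promoters matched (47.1%), against 696 of 10425 (6.68%). SLC24A5, one of the 8 and chosen for naming after its values were seen, was lower with trametinib (-0.49 ± 0.1, adjusted p = 0.00455):
TSPAN10 (chr17:81642201-81642254, plus strand): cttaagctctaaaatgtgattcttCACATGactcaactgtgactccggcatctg
TRPM1 (chr15:31161161-31161192, minus strand): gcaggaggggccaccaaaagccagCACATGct
TYR (chr11:89177839-89177874, plus strand): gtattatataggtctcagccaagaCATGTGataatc
TYRP1 (chr9:12693350-12693384, plus strand): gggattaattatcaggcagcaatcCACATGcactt
GPNMB (chr7:23246689-23246742, plus strand): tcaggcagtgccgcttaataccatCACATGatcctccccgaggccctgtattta

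The 3 other motif searches gave these shares. The E-box CACGTG was found in 9 of 20 lysosome gene promoters (45%), against 1063 of 10425 (10.2%). The sterol regulatory element, searched in its classic form and as TCACNCCAC, was found in 1 of 18 cholesterol gene promoters (5.56%), that of SREBF2, against 114 (1.09%). The ETS motif CCGGAAGT was found in 0 of 12 promoters of ERK output genes, against 917 (8.80%). All were searched on both strands.

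Of 12 tested melanocyte lineage factors, 9 were higher with trametinib and 1 lower, with a median of 0.82. MITF itself was at 8362 and 8592 with trametinib, against 5343 and 5099 with panobinostat and 4158 and 4070.1 with vehicle, above vehicle with both drugs and further with trametinib (0.70 ± 0.054, adjusted p = 9.01e-06). IRF4, a cofactor of MITF at pigment genes, was at 612 and 846 with trametinib, against 9.17 and 7.06 with panobinostat and 22.3 and 21.4 with vehicle (6.31 ± 0.35, adjusted p = 1.20e-06), so that the panobinostat libraries lay under vehicle. EDNRB, the endothelin receptor of melanoblasts, was at 7236 and 8447 with trametinib, against 976 and 1133 with panobinostat and 812 and 799 with vehicle (2.89 ± 0.098, adjusted p = 6.83e-08). SOX9 was at 767 and 758 with trametinib, against 118 and 120.0 with panobinostat and 103 and 82.3 with vehicle (2.67 ± 0.19, adjusted p = 5.46e-06). The exception was SOX5, a repressor in this lineage, at 321 and 334 with trametinib, against 684 and 725 with panobinostat and 343 and 364 with vehicle, where the panobinostat libraries alone stood off (-1.10 ± 0.13, adjusted p = 1.53e-04).

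Markers of Schwann cells, which also derive from the neural crest, moved with the lineage genes, and their part in that result was not tested. MBP, myelin basic protein, was at 3381 and 3341 with trametinib, against 1055 and 1049.7 with panobinostat and 1038 and 1039 with vehicle. PMP22, a peripheral myelin protein gene, was at 6722 and 5684 with trametinib, against 1472 and 1292 with panobinostat and 1782 and 1786 with vehicle. Panobinostat and vehicle lay close together in MBP. The summed level of the 6 Schwann cell markers was 34913 and 37145 with trametinib, against 20807 and 20893 with panobinostat and 15464 and 15125 with vehicle, and SOX10, counted among them, is also a melanocyte marker.

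Genes of cholesterol synthesis were mostly higher with trametinib. Of 23 tested genes of cholesterol synthesis and uptake, 17 were higher with trametinib and 3 lower, with a median of 1.03. Against vehicle the median was 0.69 with trametinib and -0.20 with panobinostat. HMGCS1, which makes the precursor of mevalonate, was at 3683 and 3459 with trametinib, against 879.8 and 754 with panobinostat and 1099 and 1138 with vehicle (2.13 ± 0.09, adjusted p = 2.04e-07). FDFT1, squalene synthase, was at 11516 and 11829 with trametinib, against 4096 and 4128 with panobinostat and 3790.4 and 3644 with vehicle (1.50 ± 0.054, adjusted p = 8.97e-08). SREBF2, the regulator of the pathway, was at 4805 and 4884 with trametinib, against 2332 and 2424 with panobinostat and 2642 and 2825 with vehicle (1.03 ± 0.068, adjusted p = 3.70e-06). CYP51A1, a sterol demethylase gene, was at 2679.8 and 2759 with trametinib, against 1253 and 1038 with panobinostat and 1766 and 1606 with vehicle, above vehicle with trametinib and below it with panobinostat (1.25 ± 0.097, adjusted p = 9.17e-06). SCD, the stearoyl-CoA desaturase of fatty acid synthesis, showed that order as well, at 17953 and 19029 with trametinib, against 6733 and 6482 with panobinostat and 8417 and 8474 with vehicle (1.48 ± 0.052, adjusted p = 8.35e-08).

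Several neural genes were high with panobinostat and near vehicle with trametinib. Of 23 tested neuronal and synaptic genes, 10 were lower with trametinib than with panobinostat and 1 higher, with a median of -1.52 that was -0.91 without trametinib replicate 2. The other 12 did not pass, and the 47.8% called stood near the 42% over all tested genes. In trametinib replicate 2, 6 of the tested members were at 0. With either trametinib library left out, 2 were higher. Against vehicle the median was 0.16 with trametinib and 1.07 with panobinostat. MAP2, a dendrite microtubule protein gene, was at 131 and 58.3 with trametinib, against 1387 and 1330.0 with panobinostat and 119 and 101 with vehicle (-3.94 ± 0.3, adjusted p = 8.63e-06). NOVA2, a neuronal splicing factor gene, was at 11.03 and 16.1 with trametinib, against 146 and 145 with panobinostat and 10.2 and 3.17 with vehicle (-3.35 ± 0.55, adjusted p = 0.00109). MAPT, tau, was at 20.1 and 0 with trametinib, against 122 and 86.7 with panobinostat and 5.42 and 7.13 with vehicle, a difference of -4.50 ± 1.2 that was -2.30 without trametinib replicate 2 and did not pass with either panobinostat library left out. In MAP2 and NOVA2 the trametinib and vehicle libraries lay close together and the panobinostat libraries far above.

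Not all neuronal genes did so. NEFH, a neurofilament gene, was at 156 and 102 with trametinib, against 821 and 765 with panobinostat and 1633 and 1723 with vehicle, below vehicle with both drugs (-2.64 ± 0.18, adjusted p = 4.01e-06). TUBB3, a neuronal tubulin gene, was higher with trametinib. It was at 1162 and 1150.3 with trametinib, against 349 and 447 with panobinostat and 391 and 371 with vehicle (1.55 ± 0.13, adjusted p = 1.37e-05). The neuron markers SNAP25 and SYP were at 12.1 or less in the trametinib, panobinostat and vehicle libraries. REST, the repressor of neuronal genes, did not pass, with a 95% interval of -0.14 to 0.55 for the log2 difference, and passed with 0.41 without trametinib replicate 2.

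Adhesion genes of the nervous system went with them. Of 16 tested genes of the L1 family and neural adhesion, 12 were lower with trametinib and 2 higher, with a median of -2.06, and without panobinostat replicate 2 there were 7 lower and 1 higher. L1CAM, a neural adhesion molecule gene, was at 22.1 and 35.2 with trametinib, against 244 and 274 with panobinostat and 10.2 and 9.5 with vehicle (-3.17 ± 0.35, adjusted p = 1.01e-04). ALCAM, an adhesion receptor gene, was at 536 and 419.9 with trametinib, against 1475 and 1489 with panobinostat and 431 and 429 with vehicle (-1.64 ± 0.12, adjusted p = 5.89e-06). CNTNAP1, of the axon-glia junction, was higher with trametinib, at 1546 and 1502 with trametinib, against 546 and 542 with panobinostat and 566 and 550.2 with vehicle (1.48 ± 0.091, adjusted p = 2.09e-06). LRP2, an endocytic receptor gene, was at 26.1 and 65.3 with trametinib, against 548 and 473 with panobinostat and 10.8 and 17.4 with vehicle (-3.59 ± 0.4, adjusted p = 9.36e-05), with -4.24 without trametinib replicate 2. In L1CAM, ALCAM and LRP2 the panobinostat libraries lay far above both other groups.

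Secreted neural peptides separated the drugs too, with 60% of those tested called, against 42% over all tested genes. Of 10 tested neuropeptides and granins, 5 were lower with trametinib and 1 higher, and 2 were higher without trametinib replicate 1. VGF, a secreted nerve growth factor response gene, was at 147 and 196 with trametinib, against 8093 and 8185 with panobinostat and 2523 and 2534 with vehicle, 47.6-fold lower with trametinib (-5.57 ± 0.14, adjusted p = 1.09e-08). The prohormone convertase gene PCSK2 was the higher one, at 383 and 376 with trametinib, against 38.7 and 28.2 with panobinostat and 9.03 and 7.92 with vehicle (3.48 ± 0.35, adjusted p = 5.62e-05). VGF and PCSK2 thus went in opposite directions. Of 17 tested cadherins and protocadherins, 8 were lower and 1 higher, and the higher count was 2 without trametinib replicate 2 and 0 without panobinostat replicate 1. Of this list, 52.9% were called, against 42% over all tested genes. CDH2, N-cadherin, was at 24.1 and 12.1 with trametinib, against 189.6 and 169 with panobinostat and 46.3 and 38.00 with vehicle (-3.32 ± 0.37, adjusted p = 1.09e-04). CDH19, a cadherin gene of the neural crest, was at 178 and 189.9 with trametinib, against 881 and 965 with panobinostat and 630.1 and 568 with vehicle (-2.32 ± 0.11, adjusted p = 5.09e-07). PCDH1, a protocadherin gene, was at 5.01 and 0 with trametinib, against 125 and 135 with panobinostat and 12.04 and 15.04 with vehicle (-5.74 ± 0.8, adjusted p = 4.21e-04), with -4.45 without trametinib replicate 2.

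Axon guidance genes moved both ways, with 7 higher and 10 lower of 25 tested, 68% called, against 42% over all tested genes. PLXNC1, a semaphorin receptor known from melanocytes, had one of the smallest adjusted p-values of all named genes, at 16308 and 15210.5 with trametinib, against 1468 and 1495 with panobinostat and 3452 and 3409 with vehicle (3.41 ± 0.058, adjusted p = 1.60e-09). SEMA6A was higher too, at 49786 and 53178 with trametinib, against 22831 and 22524 with panobinostat and 17864 and 17486 with vehicle (1.18 ± 0.047, adjusted p = 1.56e-07). SEMA3D was lower, at 13.04 and 7.03 with trametinib, against 271 and 354 with panobinostat and 138 and 153 with vehicle (-4.87 ± 0.36, adjusted p = 7.43e-06). SEMA5A was at 256 and 224 with trametinib, against 1199.9 and 1114 with panobinostat and 355 and 379 with vehicle (-2.27 ± 0.12, adjusted p = 1.01e-06). The lower count was 6 with either panobinostat library left out.

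Receptors and surface signalling differed gene by gene. FGFR2, a fibroblast growth factor receptor gene, was at 781 and 774 with trametinib, against 45.9 and 41.3 with panobinostat and 53.6 and 52.3 with vehicle (4.13 ± 0.19, adjusted p = 3.05e-07). The receptor tyrosine kinase gene MET was at 9197 and 9695 with trametinib, against 4737 and 4893 with panobinostat and 5559.9 and 5446 with vehicle (0.97 ± 0.062, adjusted p = 2.74e-06). IGF1R was lower with trametinib, at 273 and 379.8 with trametinib, against 854 and 916 with panobinostat and 497 and 511 with vehicle (-1.46 ± 0.15, adjusted p = 7.11e-05). FGFR2 and MET were thus highest with trametinib, and IGF1R, the insulin-like growth factor receptor gene, lowest. ERBB3, a partner of other ERBB receptors, was above vehicle with both drugs, at 1343 and 1443 with trametinib, against 778 and 755 with panobinostat and 351 and 339 with vehicle (0.86 ± 0.093, adjusted p = 8.11e-05). TGFBR2, a receptor for TGF-beta, was at 1024 and 1121 with trametinib, against 329 and 324 with panobinostat and 231 and 264 with vehicle (1.71 ± 0.13, adjusted p = 6.45e-06). The ligand gene BMP2 was at 88.3 and 74.3 with trametinib, against 754 and 651 with panobinostat and 331 and 356 with vehicle (-3.10 ± 0.19, adjusted p = 2.25e-06). The ligand and the receptor gene of this family thus went in opposite directions.

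The WNT pathway genes CTNNB1 and SFRP1 were lower with trametinib. CTNNB1, beta-catenin, was at 3140.2 and 2931 with trametinib, against 10113 and 9578 with panobinostat and 7922 and 8272 with vehicle (-1.70 ± 0.059, adjusted p = 8.35e-08). The WNT inhibitor gene SFRP1 was at 2497 and 3118 with trametinib, against 15667 and 15095 with panobinostat and 7769.9 and 7888 with vehicle (-2.46 ± 0.089, adjusted p = 8.97e-08). CXCL12, a chemokine gene, was at 643 and 784 with trametinib, against 25.5 and 21.2 with panobinostat and 13.8 and 16.6 with vehicle (4.87 ± 0.27, adjusted p = 1.19e-06). PRICKLE1, of planar cell polarity, was at 2854 and 2588 with trametinib, against 148 and 105 with panobinostat and 76.4 and 87.1 with vehicle (4.44 ± 0.18, adjusted p = 1.62e-07). In CXCL12 and PRICKLE1 the trametinib libraries stood far above both other groups.

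Matrix genes split, and integrins and laminins were more often lower with trametinib than higher. Of 19 tested collagen and matrix genes, 6 were higher and 4 lower (median 0.25), with 52.6% called, against 42% over all tested genes. Of 21 tested integrins and laminins, 11 were lower and 4 higher, with a median of -0.97 that was -0.51 without trametinib replicate 2, and the higher count was 2 with either panobinostat library left out. ITGA3 was at 539.6 and 710.3 with trametinib, against 2253 and 2165 with panobinostat and 515 and 494 with vehicle (-1.83 ± 0.13, adjusted p = 4.79e-06). ITGA2 was at 143 and 143 with trametinib, against 413 and 442 with panobinostat and 188 and 192 with vehicle (-1.57 ± 0.16, adjusted p = 5.35e-05). In both, panobinostat lay far above vehicle. LAMA1, a laminin gene, was at 682 and 466 with trametinib, against 2432 and 2433 with panobinostat and 2410.4 and 2598 with vehicle (-2.11 ± 0.15, adjusted p = 4.82e-06). Among matrix proteases and their inhibitors, MMP14, a membrane metalloproteinase gene, was at 11561 and 13124 with trametinib, against 3163 and 3327 with panobinostat and 5123 and 4949.7 with vehicle (1.92 ± 0.068, adjusted p = 8.51e-08). TIMP2, a metalloproteinase inhibitor gene, was at 54099.9 and 52917 with trametinib, against 23239 and 23846 with panobinostat and 20071 and 20273 with vehicle (1.18 ± 0.042, adjusted p = 8.35e-08). SERPINE2, a protease inhibitor gene, was lower, at 345 and 393 with trametinib, against 2989.9 and 2939 with panobinostat and 1248 and 1206 with vehicle (-3.01 ± 0.093, adjusted p = 3.61e-08). Fibronectin gene FN1 was at 2961 and 2923 with trametinib, against 1675 and 1533 with panobinostat and 693 and 762 with vehicle (0.88 ± 0.085, adjusted p = 4.13e-05), above vehicle with both drugs.

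**Figure D4:**
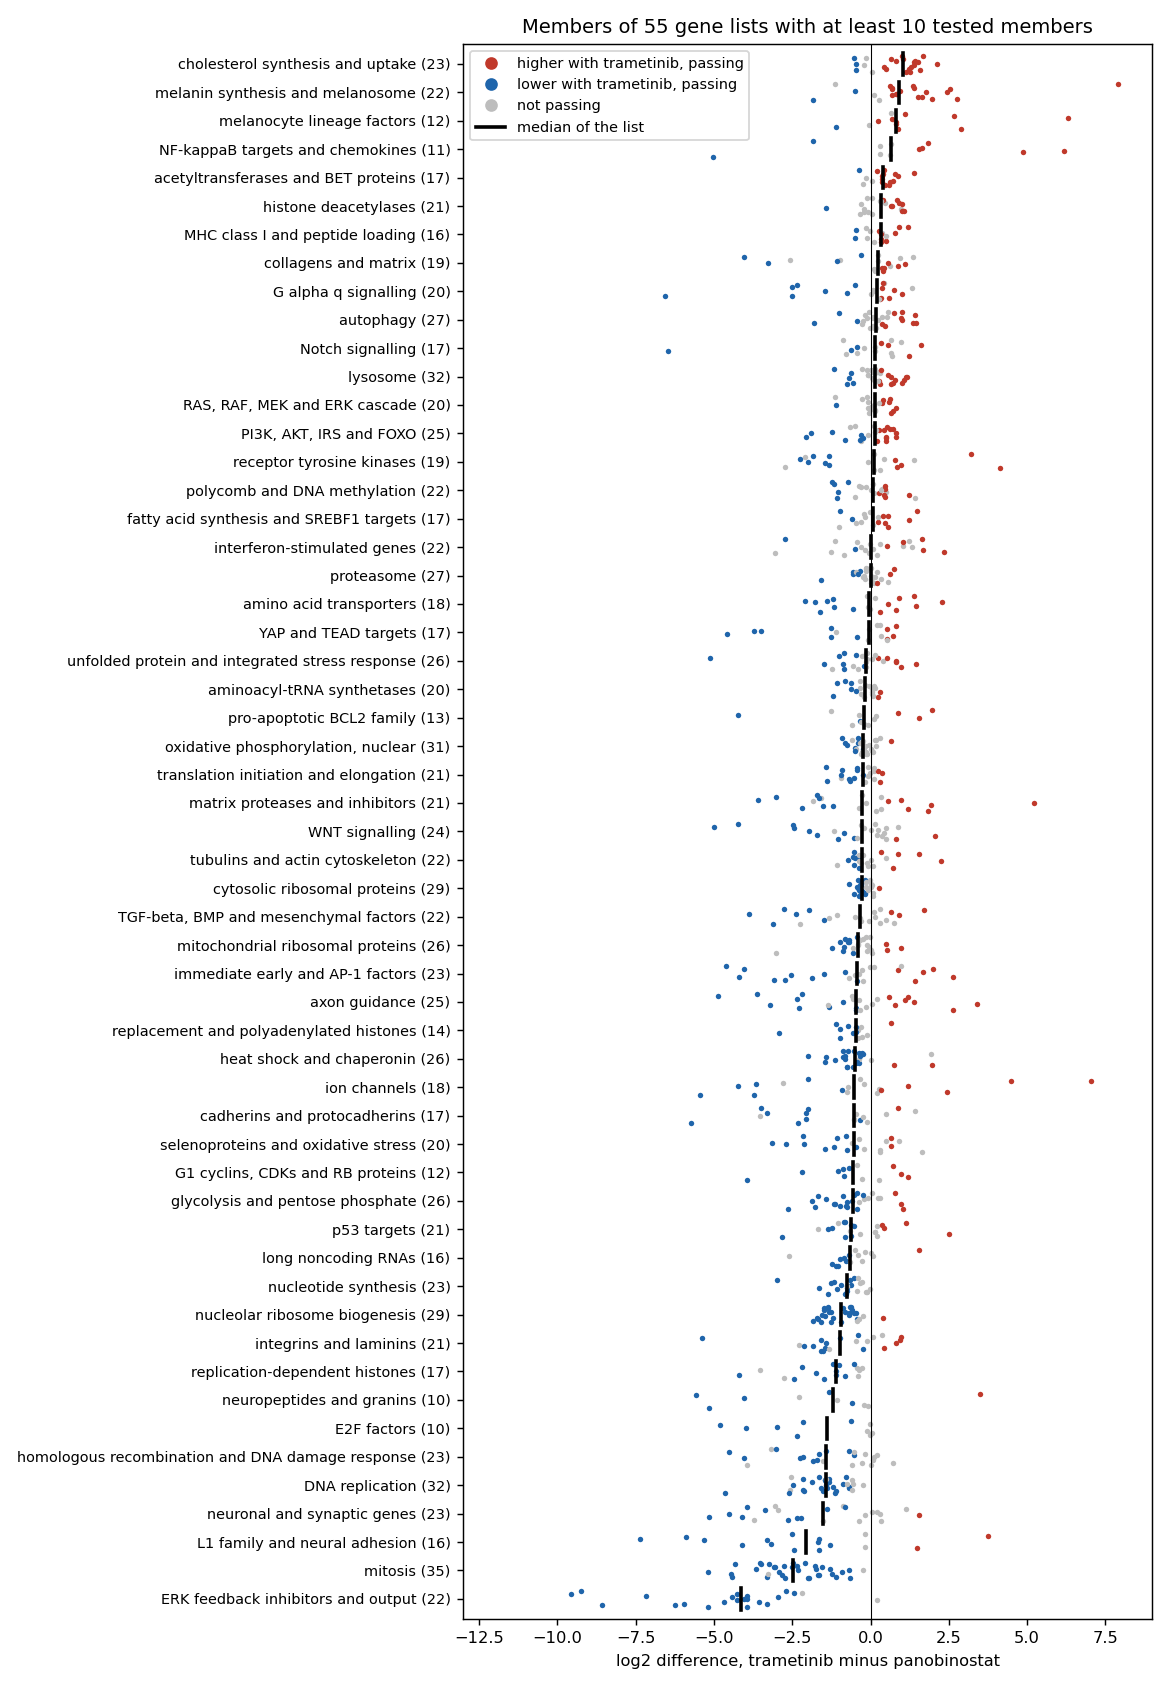
Log2 difference, trametinib minus panobinostat, for each tested member (points) of 55 gene lists with at least 10 tested members (number in brackets), with the list median as a black bar. Red points passed and were higher with trametinib, blue points passed and were lower, and grey points did not pass. The medians run from -4.14 for ERK feedback inhibitors and output to 1.03 for cholesterol synthesis and uptake.

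The genes of the acetylation machinery were lower with panobinostat than with trametinib. Of 17 tested acetyltransferases and BET proteins, 13 were higher with trametinib and 1 lower, with a median of 0.41, and the higher count was 7 without panobinostat replicate 1. The lower count was 2 without trametinib replicate 2 and 0 without panobinostat replicate 2. CREBBP, an acetyltransferase, was at 5216 and 5556 with trametinib, against 3371 and 3596 with panobinostat and 4367 and 4505 with vehicle (0.63 ± 0.062, adjusted p = 4.45e-05). BRD2, a reader of acetylated histones, was at 5574 and 5469 with trametinib, against 3955 and 4001 with panobinostat and 5576 and 5741 with vehicle, near its vehicle level with trametinib and below it with panobinostat (0.47 ± 0.058, adjusted p = 1.89e-04). KAT5, another acetyltransferase gene, was at 337 and 505 with trametinib, against 160.0 and 155 with panobinostat and 320.2 and 375 with vehicle (1.38 ± 0.22, adjusted p = 8.24e-04), likewise below vehicle with panobinostat.

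Of 21 tested histone deacetylase and corepressor genes, 8 were higher with trametinib and 1 lower (median 0.35), the higher count being 5 without panobinostat replicate 2 and the lower count 3 without trametinib replicate 1. The 42.9% called was close to the 42% over all tested genes. HDAC9 was the lower one, at 1078 and 1255 with trametinib, against 3100.1 and 3191 with panobinostat and 1307 and 1222 with vehicle, near vehicle with trametinib and far above it with panobinostat (-1.43 ± 0.096, adjusted p = 3.66e-06). HDAC4 was at 1523 and 1687 with trametinib, against 781 and 833 with panobinostat and 969 and 999 with vehicle (0.99 ± 0.095, adjusted p = 3.81e-05). HDAC1, HDAC2 and HDAC3, which encode main targets of panobinostat, did not pass, with 95% intervals of -0.66 to 0.02, -0.47 to 0.25 and -0.70 to 0.10 for the log2 difference. Without trametinib replicate 1, HDAC1 (-0.56) and HDAC3 (-0.52) passed.

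Of 13 tested pro-apoptotic BCL2 family genes, 3 were higher with trametinib and 2 lower, and of 8 anti-apoptotic family members and inhibitors of apoptosis, 3 were higher and 0 lower. The 38.5% and 37.5% called lay under the 42% over all tested genes. The pro-apoptotic lower count was 0 with either panobinostat library left out, 1 with either vehicle library left out and 4 without trametinib replicate 1, which also gave 1 lower anti-apoptotic gene. Of 22 tested interferon-stimulated genes, 5 were higher and 2 lower (31.8%), with 3 higher without panobinostat replicate 2 and 6 lower without trametinib replicate 1. Of 11 tested NF-kappaB targets and chemokines, 5 were higher and 2 lower, with 1 lower when either panobinostat library was left out. BMF, a death-promoting BCL2 family gene, was at 1712 and 1663 with trametinib, against 548 and 614 with panobinostat and 214 and 207 with vehicle, above vehicle with both drugs and further with trametinib (1.54 ± 0.095, adjusted p = 2.32e-06). BCL2L1, which encodes BCL-xL, was at 1378 and 1550.2 with trametinib, against 835 and 932 with panobinostat and 739.7 and 842 with vehicle (0.73 ± 0.11, adjusted p = 7.22e-04). NFKBIA, the inhibitor of NF-kappaB, was at 674 and 807 with trametinib, against 218 and 196 with panobinostat and 306 and 289 with vehicle (1.83 ± 0.14, adjusted p = 9.74e-06). ICAM1 was at 189 and 242 with trametinib, against 766 and 764 with panobinostat and 660.2 and 716 with vehicle (-1.84 ± 0.17, adjusted p = 3.10e-05). Of 16 tested genes of MHC class I and peptide loading, 8 were higher with trametinib and 2 lower (median 0.34, and 0.19 with quantile normalisation), and leaving out panobinostat replicate 1 gave 5 higher and 0 lower. The lower count was also 0 without panobinostat replicate 2, with either vehicle library left out and without combination replicate 2. Of the MHC class I list 62.5% were called and of the NF-kappaB list 63.6%, against 42% over all tested genes. TAPBP, tapasin, was at 8224 and 8054 with trametinib, against 4353 and 4307 with panobinostat and 3707 and 3656 with vehicle (0.91 ± 0.051, adjusted p = 1.20e-06).

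For 1946 genes, 14.6%, the 95% interval of the difference lay within 0.5 on the log2 scale. This bound is not a statement that the drugs act alike. By this measure 21 of the 29 cytosolic ribosomal proteins were bounded, 15 of 27 proteasome genes, 11 of 20 aminoacyl-tRNA synthetases and 14 of 32 lysosome genes. Of the proteasome genes, 3 were higher with trametinib and 5 lower, with a median of 0.01 that was -0.07 without trametinib replicate 2. Those counts were 1 and 1 without panobinostat replicate 1, the lower count was 1 without panobinostat replicate 2 and the higher count was 5 without trametinib replicate 1. Of the lysosome genes 12 were higher and 5 lower, with a median of 0.15. The shares called were 29.6% for the proteasome and 53.1% for the lysosome, against 42% over all tested genes. The number of bounded genes was 1221 without panobinostat replicate 1 and 1216 without panobinostat replicate 2.

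Seen from vehicle, the lists part in several ways. The comparisons of each drug with vehicle share the vehicle libraries, and the difference between the drugs equals the difference of their changes from vehicle, so these medians are given side by side as a description only. ERK output had a median of -3.49 with trametinib and 0.55 with panobinostat. Division genes were low with both: DNA replication was at -3.08 with trametinib and -1.70 with panobinostat, and nucleolar genes at -1.51 with trametinib and -0.65 with panobinostat. Neural adhesion genes were at 0.25 with trametinib and 1.81 with panobinostat. Pigment genes were at 0.85 with trametinib and -0.12 with panobinostat.

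**Figure D5:**
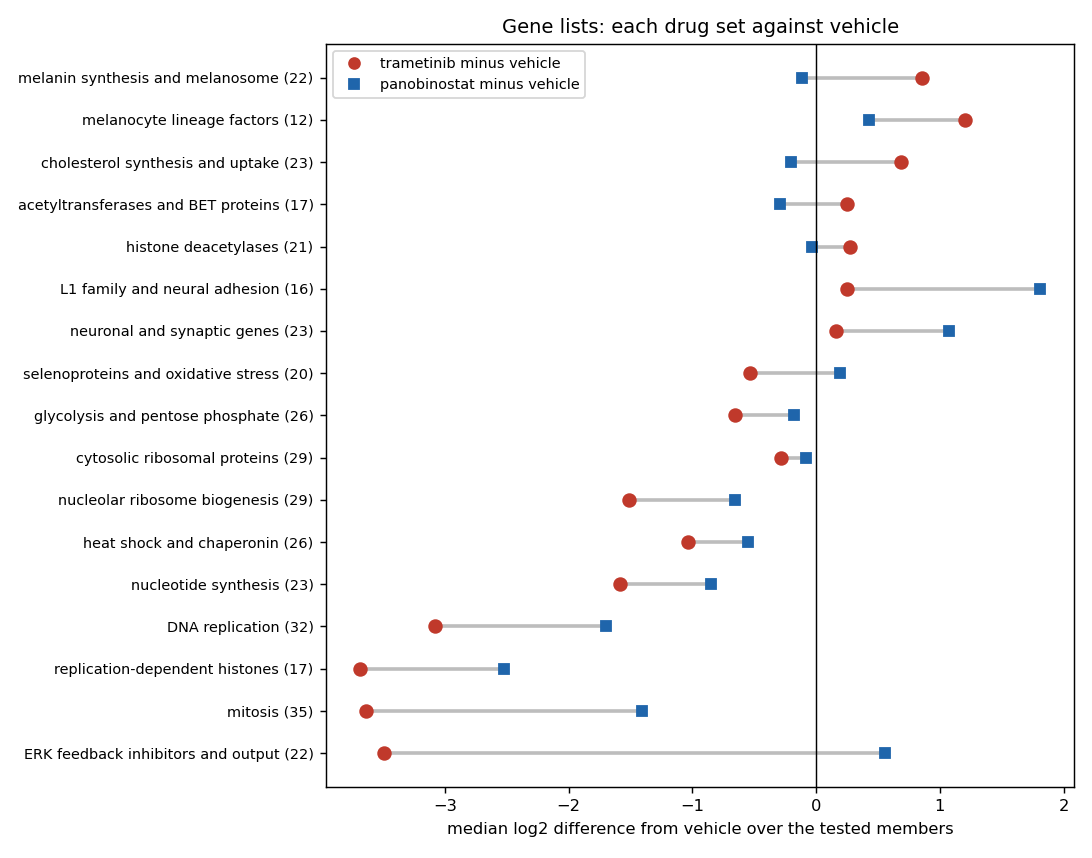
Median log2 difference from vehicle over the tested members of 17 gene lists (number in brackets) for trametinib (red circles) and panobinostat (blue squares). Trametinib lies lowest for replication-dependent histones (-3.68) and mitosis (-3.64), and panobinostat lies highest for the L1 family and neural adhesion (1.81).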

How the data were processed

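RNA was measured in 8 libraries of 92.1 cells, made from total RNA, per the labels' protocols, using NuGEN's Ovation system for human FFPE RNA-Seq. The deposited signal values are gene counts that the authors divided by a size factor for each library, as the steps between the values show. TopHat2 2.0.13, Cufflinks 2.2.1 and DESeq2 are named in the submitters' processing notes, which name a build, hs37d5, for 4 libraries (trametinib and vehicle) and no build for 4 (panobinostat and combination). Strand and annotation are not given in the sources used here, so overlapping and antisense genes, and copies such as histones, HLA, heat shock and tubulin genes, are uncertain. The labels give 10 nM once for the combination. Whole reads were recovered for 100% of values within 1e-06.

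The main test was limma 3.58.1 in R 4.3.3 on log2(value + 1) with a trended prior, fitted to all 8 libraries with 4 group means, over genes with a mean of at least 10, with Benjamini-Hochberg adjustment over those genes and a threshold of 0.05. It was tested on simulated data. Alternatives were edgeR 4.0.16 and DESeq2 1.42.0 on the recovered reads, other pseudocounts, filters and scalings, a replicate block and each library left out. An exact permutation test of 2 libraries against 2 cannot go below p = 0.333. Genes eligible to be named had passed, and passed again in the same direction without trametinib replicate 2. The libraries of the drugs did not overlap in them, and the drug with more of the transcript averaged 50 or above. Clone, antisense and ribosomal symbols were dropped. Named from these were the 15 largest differences each way. In each list, up to 4 with the smallest adjusted p and up to 2 with the largest difference were added, besides fixed targets. For genes so chosen, the lack of overlap and the repeated pass were conditions and not results. Fixed targets did not have to meet them. Members and gene lists were chosen with earlier results of these data known. RefSeq promoters (GRCh38.p14) were matched by symbol. Some named genes are not reported here.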

Additional observations from a re-analysis of the deposited data

How the results depend on the processing

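The count of genes higher with trametinib (2487) ranged from 1635 (without panobinostat replicate 1) to 3439 (without trametinib replicate 1) when single libraries were left out, and the count lower (3111) from 1913 to 4690. Differences of at least 2-fold ranged from 691 to 1296 higher and from 1129 to 2699 lower. Bounded genes (1946) ranged from 1216 to 2311, genes on with trametinib (3) from 5 to 17 and genes on with panobinostat (32) from 39 to 205. The counts of genes on with 1 drug can only stay or rise when a library is left out, because fewer libraries must meet the limits. Fitting only the 4 libraries of the single drugs gave 1710 higher and 1942 lower genes, with 679 higher and 1130 lower by at least 2-fold. Library weights gave 1667 higher and 2521 lower genes and 1130 bounded genes. The main counts thus rest in part on a spread shared with the vehicle and combination libraries. Those were more alike (r = 0.991 and 0.974) than the trametinib libraries (r = 0.897). Other scalings and tools stayed within 1.5 times: 2544 higher and 3050 lower with TMM, 2982 and 2881 with quantile normalisation, 2587 and 2903 with edgeR, and 2951 and 3288 with DESeq2. Genes that did not pass changed sign in few cases: HDAC2 was 0.0877 without trametinib replicate 1, 0.02 without panobinostat replicate 1 and -0.31 without trametinib replicate 2, and MAP2K2 was -0.0119 without trametinib replicate 2 and 0.24 without replicate 1. The causes were not tested. With a replicate block the counts were 2414 higher and 3098 lower, and same-numbered libraries did not deviate together (r = 0.022 for the single drugs). This cannot decide whether the replicate numbers pair the samples, because noise in single libraries could hide a shared origin. The main fit treated the libraries as unpaired. Of the genes with a mean under 50, 35.1% were at 0 in trametinib replicate 2, which had more reads than either panobinostat library.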

Other observations

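In cells given both drugs, genes that separated the single drugs did not all take the level of the same one. The ERK output genes SPRY4 and CCND1 were at 4.68 and 7.61 and at 1191 and 1114 with the combination. DCT was at 258 and 236 and IRF4 at 119 and 102, between the levels of the single drugs. L1CAM was at 310.2 and 256, MAP2 at 1399 and 1375 and NQO1 at 18237 and 17444. Of the 32 genes on with panobinostat and near 0 with trametinib, 12 had a mean of 50 or more with the combination and 6 were under 5. The 3 genes on with trametinib had combination means of 111 (KCNJ13), 53.1 (UBD) and 35.7 (VWF). These values are given without a test.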
